A study of Mus musculus with 8 samples.

Results

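The 38 genes described here encode the proteins of the tight junction and of the apical-basal polarity complexes: 18 claudins, 6 other transmembrane proteins of the junction, 4 cytoplasmic plaque scaffolds, 5 proteins of the PAR complex, 3 of the Crumbs complex and 2 of the Scribble module. They were chosen by gene symbol from the 24346 genes listed for every library, and none of their measured values entered the choice. Total RNA was sequenced from adipose-derived stem cells (ADSCs) of WT BALB/c mice, as primary cultures labelled mesenchymal stem cells. The cells came from the gonadal adipose tissue of adult male mice by collagenase digestion and filtering, with no sort on a marker described. The 4 2D libraries came from mice 2, 3, 4 and 5, grown as conventional monolayers. The 4 3D libraries came from mice 1, 4, 5 and 7, grown as organoids in Matrigel with media tried with several shares of Wnt3a- and R-Spondin1-conditioned medium. Which of these media and which passage gave the RNA was not stated, so that culture format and medium cannot be told apart, and mice 4 and 5 each contributed both kinds of library. The comparison asks which junction and polarity genes differ between 2D- and 3D-cultured ADSCs. Values are given as quantile-normalized FPKM (fragments scaled to the length of the transcript and the size of the library), which are per length and can be set side by side between genes, and always in the order of mice 2, 3, 4 and 5 for 2D and mice 1, 4, 5 and 7 for 3D.

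Tight junctions close the space between neighbouring epithelial cells. Claudins form the strands that decide which ions pass, some of them sealing the gap and others forming pores, while occludin, tricellulin and the junctional adhesion molecules (JAMs) sit in the same membrane region. Zonula occludens (ZO) proteins and cingulin on the cytoplasmic side tie the strands to actin, and the PAR, Crumbs and Scribble complexes mark the apical and basolateral domains on either side of the junction. Stromal cells lack the continuous belt, although they express several of the scaffold and polarity genes.

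Depth was 16400000 to 17400000 fragments in 2D and 14500000 to 15600000 in 3D, as estimated from the steps of low values, and 3 fragments on a transcript of 1 kilobase corresponded to 0.173 to 0.207 FPKM. Across genes on the log2 scale, libraries of a culture type correlated at 0.932 or more with each other and at 0.758 to 0.823 across types. The label was checked against 7 stromal markers, all of which reached 1 FPKM in 2D and none in 3D, where their summed level was 0.0465 to 0.175 against 1539 to 3383 in 2D. Pdgfrb and Dcn were at 0 in all 3D libraries, so the label of mesenchymal cells did not hold for them by these markers. The 6 epithelial markers summed to 1974 to 2266 FPKM in 3D and to 31.2 to 693 in 2D. Of a list of 14 epididymis genes, from the organ that adjoins gonadal fat, 6 were at 0 in every library. Only Aqp9, at 1.55 to 21.0 FPKM in 3D and at most 0.0416 in 2D, passed the test. The sum of the list was 6.10 to 22.0 in 3D and 0.358 to 1.28 in 2D, and Aqp9 made up most of it in 3 of the 3D libraries. In that of mouse 1 most of it was Crisp1, at 3.59 FPKM against at most 0.394 in the other 3D libraries and 0.117 in 2D. The 2D libraries of mice 3 and 4 stood apart, with 846 and 2028 FPKM summed over 6 mesothelium markers against 0.569 and 1.99 in the 2D libraries of mice 5 and 2 and 2.57 to 34.0 in 3D. They also held the 2 highest epithelial sums of the 2D libraries, at 176 and 693. The part of other cell types in the results that follow was not tested. In such bulk RNA, fewer cells of a type and less RNA per cell cannot be told apart.

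Of the 38 genes, 3 were at 0 in every library (Cldn6, Cldn14 and Cldn16) and 35 were tested. In 3D, 20 rose and 2 fell at an adjusted p below 0.05 (limma, adjusted over 18862 genes), which was 57.1% and 5.71% of the 35, beside 21.2% higher and 20.3% lower, or 41.5% in either direction, among all genes tested. The 20 that rose were 7 claudins, Ocln, Marveld2 and Marveld3, all 4 plaque scaffolds, Prkcz and Pard6b, Crb3 and Inadl, and both Scribble module genes. The 2 that fell were the junctional adhesion molecules Jam2 and Jam3. The other 13 did not pass the test. The 3D libraries lay wholly above the 2D libraries for 20 genes and wholly below for 3, beside 21.6% and 20.9% of all genes tested. The median log2 fold change of the 35 was 1.53, beside 0.00 over all genes. It was 2.10 with the 7 genes whose libraries of one culture type all held at most 3 fragments set to their bounds. That value has no counterpart over all genes. The shift came from Cldn9 and Cldn10, which did not pass and whose bounds rest mostly on the 3D library of mouse 1.

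With the mouse number as a replicate block, which uses the 2 mice with both cultures and leaves 1 residual degree of freedom, none of the 35 passed, as was the case for all genes. The smallest adjusted p was then 0.111, and 18 genes that rose and the 2 that fell had an unadjusted p below 0.05. The share of all genes below that level is not given here, so this count and those by role below have no background beside them. They also rest on the same libraries that gave the calls. Without the 2D libraries of mice 3 and 4, 21 of the 35 rose and 2 fell, beside 3560 higher and 4206 lower of all 18428 genes tested. F11r and Mpp5 were added to the genes that rose and Cldn1 was lost, and Cldn15 took the place of Jam3 among those that fell.

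**Figure D1:**
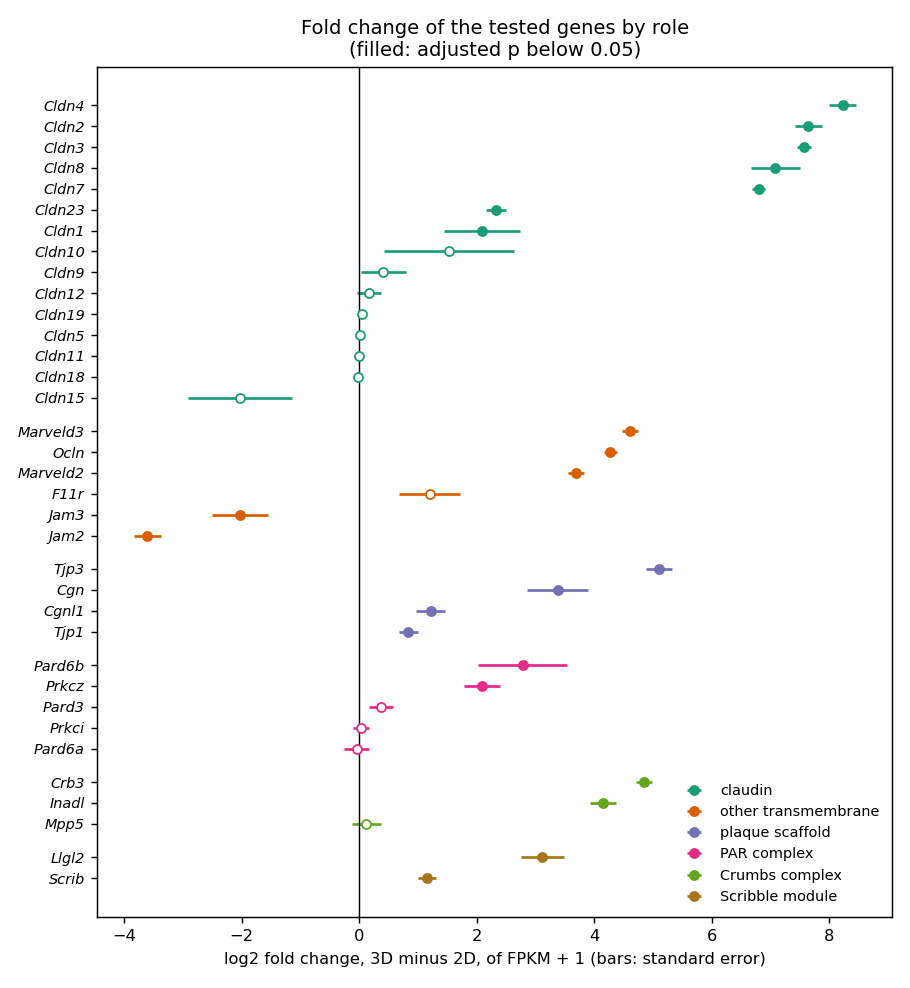
Log2 fold change (3D minus 2D, of normalized FPKM + 1) of the 35 tested genes by role, where points are estimates, bars are standard errors and filled points passed the test. The claudins ran from -2.03 for Cldn15 to 8.23 for Cldn4, and Jam2 and Jam3 were the filled points left of 0.

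The claudins held the 5 largest rises of the 35 genes on the log2 scale of FPKM + 1. Among genes near 0 in 2D, the order of rises on this scale follows the 3D level. Of the 15 tested, 7 rose (46.7%) and none fell. 5 of them, Cldn2, Cldn3, Cldn4, Cldn7 and Cldn8, went from at most 0.621 FPKM in any 2D library to at least 53.4 in every 3D library, and all 7 kept an unadjusted p below 0.05 under the block. Of these, Cldn4, Cldn3 and Cldn7 are widely found in simple and glandular epithelia.

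Cldn4, a sealing claudin, was at 0.621, 0.0767, 0 and 0 FPKM in 2D and at 248, 442, 413 and 305 in 3D. Its log2 fold change was 8.23 (SE 0.23, adjusted p = 4.02e-07), the highest of the 35 genes on this scale. No 2D library came near any 3D library. Cldn3, another sealing claudin, was at 0.189 in the 2D library of mouse 4 and at 0 in the other three, against 168, 187, 229 and 209 in 3D. The log2 fold change was 7.57 (SE 0.12, adjusted p = 2.38e-08). The 3D libraries of Cldn3 varied by 13.4% (SD over mean), less than those of Cldn4 at 25.8%. Cldn7, which in many epithelia also lies along the lateral membrane, was at 0, 0, 0.122 and 0.234 in 2D and at 119, 121, 133 and 107 in 3D. On the log2 scale Cldn7 rose by 6.80 (SE 0.11, adjusted p = 2.68e-08), and its 3D libraries were the most even of the claudins above 50 FPKM, with a variation of 9.06%. All 2D values of Cldn7 were at or under 3 fragments, and its deposited 3D mean was at least 436-fold higher than that floor per library.

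Cldn2, which forms a pore for small cations and water and is known from leaky epithelia such as the proximal tubule and crypts, was at 0 in all 2D libraries. Its 3D libraries held 306, 129, 187 and 212 FPKM. The log2 fold change was 7.64 (SE 0.24, adjusted p = 5.67e-07), and the deposited 3D mean was at least 686-fold higher than 3 fragments per library. Mouse 1 was highest and mouse 4 lowest. Cldn8, a sealing claudin of the distal nephron and colon, was likewise at 0 in all 2D libraries and at 232, 53.4, 148 and 178 in 3D. On the log2 scale Cldn8 rose by 7.08 (SE 0.41, adjusted p = 1.21e-05), at least 1561-fold on the deposited means. The 3D mean was 153 ± 74.7 (SD, n = 4), a variation of 48.9%, with the same mice at the top and at the bottom as for Cldn2.

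Cldn23 and Cldn1 rose to lower levels. Cldn23 was at 0.225, 0, 0.0518 and 0.274 in 2D and at 4.26, 6.54, 3.71 and 4.57 in 3D, the difference on the log2 scale being 2.33 (SE 0.18, adjusted p = 4.59e-05). Cldn1, a barrier claudin of the epidermis that many epithelia share, ranged from 0.0628 to 1.27 in 2D and from 1.03 to 16.3 in 3D. The ranges overlapped, since the 2D library of mouse 3 lay above the 3D library of mouse 1. The log2 fold change of Cldn1 was 2.09 (SE 0.65, adjusted p = 0.0344), and it no longer passed without the 2D library of mouse 2, 4 or 5, the 3D library of mouse 4 or 5, or the 2D libraries of mice 3 and 4 together, with adjusted p from 0.0592 to 0.0855.

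Cldn12 led the claudins in 3 of the 4 2D libraries. It lacks the carboxy-terminal motif by which most claudins bind ZO proteins. It was at 25.6, 21.7, 17.7 and 29.7 FPKM in 2D and at 19.5, 25.5, 35.8 and 26.6 in 3D. The groups overlapped, and the log2 difference was 0.17 (SE 0.21, adjusted p = 0.551), with a 95% interval of -0.32 to 0.66. Cldn15, a pore-forming claudin of the intestine, ranged from 0.990 to 33.3 in 2D and from 0 to 0.115 in 3D, so that every 3D library lay below every 2D library. With 33.3 in the 2D library of mouse 4 and at most 1.35 in the other three, its log2 difference of -2.03 (SE 0.89) did not pass, at an adjusted p of 0.107. It passed with a pseudocount of 0.1 (-4.29, adjusted p = 0.0122), without the 2D library of mouse 4 (-1.03, adjusted p = 1.52e-04) and without the 2D libraries of mice 3 and 4 (-1.10, adjusted p = 2.49e-04). Cldn10, whose isoforms form pores, was at 37.9 in the 3D library of mouse 1 and at most 0.440 in the other 7 libraries, with a log2 difference of 1.53 (SE 1.10, adjusted p = 0.311). Without that library it was 0.26 and passed, at an adjusted p of 0.0490, although all 2D libraries and the 3D library of mouse 5 held at most 3 fragments. Cldn9 was at 2.33 in that same library and at or under 3 fragments in the others. Cldn5, the claudin of endothelium, Cldn18 and Cldn19 were at or under 3 fragments in all 8 libraries, and Cldn11 in 7.

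**Figure D2:**
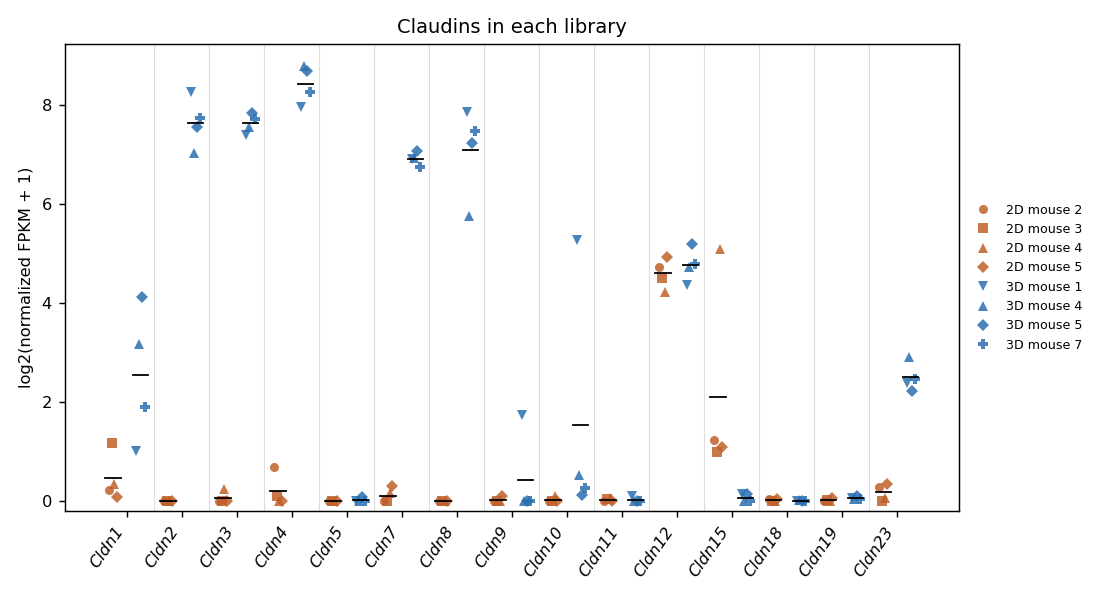
Level of each of the 15 tested claudins in every library, as log2(normalized FPKM + 1), where each symbol is a library and black lines are group means. Cldn2, Cldn3, Cldn4, Cldn7 and Cldn8 lay at or near 0 in 2D and high in 3D, Cldn12 overlapped between the groups, and Cldn10 and Cldn15 each had 1 library far above its group.

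The summed level of the 18 claudins was 33.9 ± 12.3 FPKM (SD, n = 4) in 2D and 1080 ± 89.1 (n = 4) in 3D, given as a description with no test. In each 2D library 2 claudins reached 1 FPKM, and in 3D 10 did so in mouse 1 and 8 in each of the others. Cldn12 took 77.4 ± 28.9% of the 2D sum, the lowest share being 34.2% in mouse 4, where Cldn15 took 64.4%, and the highest 94.1% in mouse 5. In 3D, Cldn12 took 2.49 ± 0.565%. Cldn2, Cldn3, Cldn4, Cldn7 and Cldn8 together took 95.5 ± 1.04% there. Cldn4 led in the 3D libraries of mice 4, 5 and 7, with a mean share of 33.0 ± 9.99%, and Cldn2 led in that of mouse 1 with 26.9%. In the order of 3D levels, Cldn2 (209 ± 73.9 FPKM), Cldn3 (198 ± 26.6) and Cldn7 (120 ± 10.9) did not differ from Cldn8 (153 ± 74.7) beyond the spread of the latter. The pore-forming Cldn2, Cldn10 and Cldn15 summed to 1.35, 0.990, 33.4 and 1.13 FPKM in 2D and to 218 ± 91.0 in 3D. Their share of the claudin sum was 4.81, 4.10, 64.5 and 3.58% in 2D and 13.3 to 30.3% in 3D, so that 3 of the 4 2D libraries lay below every 3D library and that of mouse 4 above. In 2D this share was almost wholly Cldn15, and in 3D mostly Cldn2.

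**Figure D3:**
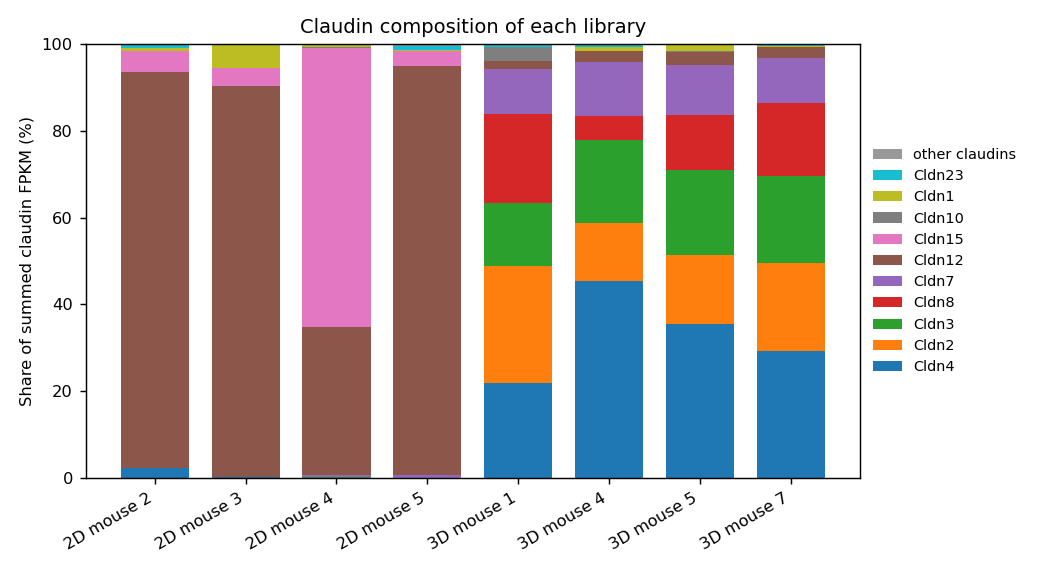
Share (%) of the summed claudin FPKM that each claudin took in the 8 libraries, as stacked bars that add to 100. Cldn12 filled most of 3 of the 2D bars and Cldn15 that of mouse 4, while Cldn2, Cldn3, Cldn4, Cldn7 and Cldn8 filled 94.3 to 96.7% of each 3D bar.

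Several claudin genes lie side by side in the mouse genome. Cldn4 (chr5:134945119-134946934, minus strand, GRCm38) and Cldn3 (chr5:134986214-134987472, plus strand) are neighbours 39.3 kb apart, and both rose, with 3D means of 352 ± 90.8 and 198 ± 26.6 FPKM. Cldn1 (chr16:26356642-26371841, minus strand) and Cldn16 (chr16:26463135-26482765, plus strand) lie 91.3 kb apart, where Cldn1 rose and Cldn16 was at 0 in every library. Cldn6 and Cldn9 on chromosome 17 are 137 bases apart, with Cldn6 at 0 in every library.

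The start regions of the neighbours Cldn3 and Cldn4 and of Cldn7 are shown. Of the claudins that rose, only these 3 hold the letters CACCTG or their reverse complement CAGGTG in a promoter. This is the E-box that Snail and Zeb repressors are known to bind in the promoter of E-cadherin. Cldn1 and Cldn2, which also rose, had no match, nor did the first of the Cldn7 starts. Cldn8 and Cldn23 had no entry. The sequences are RefSeq promoters of GRCm38.p6, 250 bases before to 50 after a transcript start, written 5′ to 3′ on the gene's strand, and capitals mark each CACCTG or CAGGTG. Cldn3 (chr5:134985964-134986263, plus strand) has 1 match, 32 bases after the start. Cldn4 (chr5:134946885-134947184, minus strand) has 2, at 14 bases before and 12 after. The second of the Cldn7 starts (chr11:69965171-69965470, plus strand) has 2, at 97 and 57 bases before.
Cldn3: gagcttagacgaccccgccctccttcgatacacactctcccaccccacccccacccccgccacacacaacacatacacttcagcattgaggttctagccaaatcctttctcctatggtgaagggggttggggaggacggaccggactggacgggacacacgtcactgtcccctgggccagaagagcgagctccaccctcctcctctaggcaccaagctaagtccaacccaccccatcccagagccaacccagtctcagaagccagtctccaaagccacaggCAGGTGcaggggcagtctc
Cldn4: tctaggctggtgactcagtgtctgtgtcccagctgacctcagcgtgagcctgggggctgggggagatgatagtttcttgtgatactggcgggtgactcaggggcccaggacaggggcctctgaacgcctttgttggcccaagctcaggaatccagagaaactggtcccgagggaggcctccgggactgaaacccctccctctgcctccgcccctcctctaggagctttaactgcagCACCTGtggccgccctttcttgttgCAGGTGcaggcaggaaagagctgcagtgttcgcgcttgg
Cldn7, second start: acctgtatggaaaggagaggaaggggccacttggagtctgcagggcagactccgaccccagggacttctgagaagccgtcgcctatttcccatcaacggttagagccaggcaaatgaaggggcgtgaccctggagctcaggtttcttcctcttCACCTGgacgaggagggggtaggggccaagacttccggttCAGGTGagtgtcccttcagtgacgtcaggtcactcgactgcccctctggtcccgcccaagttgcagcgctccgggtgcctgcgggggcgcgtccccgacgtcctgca

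Promoters were found for 29 of the 38 genes. CACCTG in either orientation stood in at least 1 promoter of 15 of the 29 (51.7%), beside 6098 of 27025 genes (22.6%) in the whole table, and in 20 of their 47 promoters (42.6%) beside 20.2% of all promoters. The share by gene grows with the number of promoters per gene, which was larger here (47 for 29 genes) than in the whole table (32851 for 27025). Some of the 47 windows overlap and count the same match again, as those of Crb3, Marveld2 and Ocln do. By response, counting any promoter of a gene, CACCTG was found in 10 of 15 genes that rose (66.7%), 3 of 11 that did not pass (27.3%) and 2 of the 3 at 0 in every library. Jam2 and Jam3 had no entry. AACCNGTT, the letters that grainyhead-like factors recognize, stood in either orientation in promoters of 2 of the 29 (Cldn5 and Cgn), beside 2.35% of all genes. These are counts of letters, with no binding measured.

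The 6 other transmembrane genes split, with 3 higher, 2 lower and 1 that did not pass. All 5 called genes had an unadjusted p below 0.05 under the block. Occludin (Ocln), tricellulin (Marveld2), which seals the corners where 3 cells meet, and Marveld3 form 1 protein family. Ocln was at 0.0336, 0.0409, 0.00457 and 0 FPKM in 2D and at 18.05, 20.2, 18.7 and 18.1 in 3D. On the log2 scale Ocln rose by 4.27 (SE 0.12, adjusted p = 3.60e-07), and its deposited 3D mean was at least 241-fold higher than 3 fragments per library. Marveld2 was at 0, 0, 0.0146 and 0.154 in 2D and at 11.2, 14.4, 12.0 and 12.1 in 3D, the rise being 3.68 on the log2 scale (SE 0.14, adjusted p = 1.22e-06). Marveld3 was at 0, 0.138, 0.0358 and 0 in 2D and at 26.5, 20.2, 25.0 and 26.7 in 3D, the rise being 4.61 on the log2 scale (SE 0.14, adjusted p = 5.67e-07). All 3 were thus at 0.154 FPKM or less in every 2D library and at 11.2 or more in every 3D library.

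Of the 3 junctional adhesion molecules among the 38, Jam2 and Jam3 fell and F11r did not pass. Jam2 (JAM-B), known from endothelium and stromal cells, was at 13.2, 18.1, 18.3 and 29.7 in 2D and at 0.599, 0.850, 0.572 and 0.578 in 3D. It fell by 3.61 on the log2 scale (SE 0.23, adjusted p = 2.14e-05), the 2D mean being 30.5-fold the 3D mean. Jam3 (JAM-C), a partner of Jam2 in binding between cells, was at 18.04, 15.4, 26.0 and 15.3 in 2D and at 9.96, 1.06, 2.99 and 4.58 in 3D. Its fall of 2.02 (SE 0.48, adjusted p = 0.0110) no longer passed without the 2D libraries of mice 3 and 4, at an adjusted p of 0.0662. Neither gene had overlapping groups, and the 3D library of mouse 1 was the highest of its group for Jam3. F11r (JAM-A), the epithelial member, was at 17.5, 79.7, 74.8 and 19.4 in 2D and at 96.9, 88.7, 90.3 and 79.0 in 3D. Of the 2D libraries with high mesothelium markers, that of mouse 3 lay within the 3D range, so that the groups overlapped, and that of mouse 4 just below it. Those of mice 2 and 5 were far below. The log2 difference of F11r over all 8 libraries was 1.20 (SE 0.52, adjusted p = 0.103, 95% interval -0.01 to 2.40). It passed without the 2D library of mouse 3 (1.53, adjusted p = 0.0427) and without those of mice 3 and 4 (2.15, adjusted p = 5.30e-05). Of the summed FPKM of the 3 JAM genes, F11r took 49.8 ± 19.8% (SD, n = 4) in 2D and 94.5 ± 3.34% in 3D.

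All 4 plaque scaffolds rose, and all 4 had an unadjusted p below 0.05 under the block. They began from unlike levels. Tjp1 (ZO-1) and Cgnl1 (paracingulin), which stromal cells also use at their contacts and on actin, were above 13 FPKM in every 2D library, while Tjp3 (ZO-3) and Cgn (cingulin) were near 0 in 2 or more. Tjp3, a ZO protein found in epithelia, was at 0, 0.0443, 0.101 and 0 in 2D and at 49.0, 40.3, 30.1 and 24.2 in 3D. Tjp3 rose by 5.11 on the log2 scale (SE 0.22, adjusted p = 2.74e-06). Cgn was at 0.166, 3.78, 2.76 and 0 in 2D and at 22.6, 22.3, 22.1 and 18.3 in 3D, the rise being 3.38 on the log2 scale (SE 0.52, adjusted p = 0.00159). The 2 higher 2D values of Cgn were those of mice 3 and 4, and with the libraries of mice 4 and 5 alone its adjusted p was 0.0525.

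Tjp1 was at 16.0, 23.9, 20.2 and 15.7 in 2D and at 29.8, 40.3, 37.7 and 29.7 in 3D. Its log2 fold change of 0.83 (SE 0.17, adjusted p = 0.00513) was the smallest of the genes that rose, with no overlap between the groups. Cgnl1 was at 13.3, 15.2, 16.6 and 19.2 in 2D and at 22.3, 48.8, 46.2 and 42.8 in 3D, the rise being 1.22 on the log2 scale (SE 0.25, adjusted p = 0.00589). Its 3D library of mouse 1 lay near the 2D range. Cgn took 8.86 ± 9.81% of the summed FPKM of the cingulin pair in 2D and 36.0 ± 9.59% in 3D. It thus took a larger share in every 3D library than in any 2D library.

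**Figure D4:**
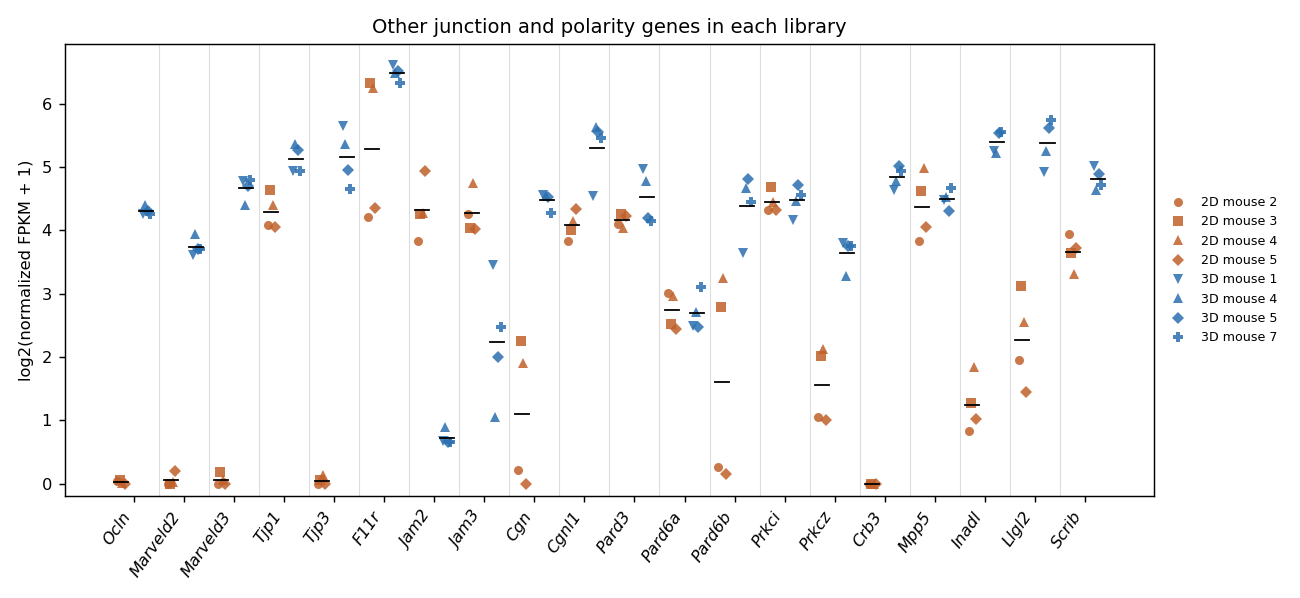
Level of the 20 genes other than claudins in every library, as log2(normalized FPKM + 1), where each symbol is a library and black lines are group means. Jam2 and Jam3 were lower in 3D, and for F11r, Cgn and Pard6b the 2D libraries of mice 3 and 4 lay above those of mice 2 and 5.

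Of the 5 PAR complex genes, which set up the apical domain with Cdc42, 2 rose and 3 did not pass. The 2 that rose, Prkcz and Pard6b, each have a paralog among the 3 that did not. Prkcz, an atypical protein kinase C, was at 1.07, 3.06, 3.38 and 1.01 in 2D and at 12.9, 8.70, 12.5 and 12.6 in 3D. Its log2 fold change was 2.10 (SE 0.31, adjusted p = 0.00123), with an adjusted p of 0.0776 from mice 4 and 5 alone. Prkci, the paralog, was at 19.1, 24.8, 20.9 and 18.9 in 2D and at 16.9, 21.1, 25.2 and 22.5 in 3D, a log2 difference of 0.03 (SE 0.14, adjusted p = 0.888, 95% interval -0.30 to 0.35). Prkcz took 8.82 ± 4.34% of the pair in 2D and 35.4 ± 5.89% in 3D.

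Pard6b was at 0.200, 5.89, 8.49 and 0.115 in 2D and at 11.5, 24.4, 27.2 and 20.8 in 3D. The 2D libraries of mice 3 and 4 lay far above those of mice 2 and 5, and the 3D library of mouse 1 lay lowest in 3D, with no overlap between the groups. The log2 fold change of Pard6b was 2.78 (SE 0.76, adjusted p = 0.0212). It no longer passed without the 2D library of mouse 2 (adjusted p = 0.0528), the 3D library of mouse 4 (0.0510) or of mouse 5 (0.0542), or with mice 4 and 5 alone (0.161). Pard6a, its paralog, ranged from 4.41 to 7.08 in 2D and from 4.55 to 7.62 in 3D, with a log2 difference of -0.04 (SE 0.21, adjusted p = 0.883). The share of Pard6b in the pair was 2.75, 55.2, 55.4 and 2.53% in 2D and 77.9 ± 6.82% in 3D. Pard3, the scaffold that binds both, was at 16.1, 18.2, 15.5 and 17.7 in 2D and at 30.5, 26.6, 17.3 and 16.7 in 3D. Mice 1 and 4 lay above the 2D range and mice 5 and 7 within it, a log2 difference of 0.37 (SE 0.20, adjusted p = 0.182, 95% interval -0.10 to 0.83). Under the block, neither Prkcz nor Pard6b had an unadjusted p below 0.05.

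In the Crumbs complex, 2 of 3 genes rose, both with an unadjusted p below 0.05 under the block. Crb3, the epithelial Crumbs protein of the apical membrane, was at 0 in all 2D libraries, which allows up to 0.211 FPKM (3 fragments), and at 24.0, 26.4, 31.3 and 29.8 in 3D. Crb3 rose by 4.84 on the log2 scale (SE 0.13, adjusted p = 3.53e-07), at least 122-fold on the deposited mean against 3 fragments per library. Inadl (PATJ), a scaffold of many PDZ domains that also binds ZO-3 and claudins, was at 0.777, 1.43, 2.58 and 1.04 in 2D and at 37.2, 36.3, 45.4 and 46.0 in 3D. The log2 fold change of Inadl was 4.15 (SE 0.22, adjusted p = 8.15e-06). Mpp5 (PALS1), which joins Crumbs to PATJ, was at 13.2, 23.7, 30.5 and 15.6 in 2D and at 21.2, 22.0, 18.8 and 24.4 in 3D. The groups of Mpp5 overlapped, with a log2 difference of 0.12 (SE 0.25, adjusted p = 0.715), and the 2D libraries of mice 3 and 4 were its highest. Without these it passed, at 0.54 and an adjusted p of 0.0205. The adaptor of the complex was thus expressed in every library of both kinds, and the membrane protein Crb3 in 3D only at this depth.

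Of the 47 promoters, both Crb3 windows, which overlap, held the same 4 CACCTG or CAGGTG matches. The first Inadl window and the second of Pard3, which did not pass the test, held 3. The start regions of Crb3 and Inadl are given in the same way, with the matches in capitals. The first of the Crb3 starts (chr17:57061951-57062250, plus strand) has 4, at 118, 63 and 7 bases before the start and 26 after. The first of the Inadl starts (chr4:98395576-98395875, plus strand) has 3, at 19 bases before and at 10 and 38 after.
Crb3, first start: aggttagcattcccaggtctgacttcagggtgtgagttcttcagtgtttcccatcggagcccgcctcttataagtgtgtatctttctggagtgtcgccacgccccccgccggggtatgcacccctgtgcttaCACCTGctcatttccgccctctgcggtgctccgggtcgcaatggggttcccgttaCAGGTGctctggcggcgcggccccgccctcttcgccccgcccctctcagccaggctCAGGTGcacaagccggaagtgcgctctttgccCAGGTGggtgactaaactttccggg
Inadl, first start: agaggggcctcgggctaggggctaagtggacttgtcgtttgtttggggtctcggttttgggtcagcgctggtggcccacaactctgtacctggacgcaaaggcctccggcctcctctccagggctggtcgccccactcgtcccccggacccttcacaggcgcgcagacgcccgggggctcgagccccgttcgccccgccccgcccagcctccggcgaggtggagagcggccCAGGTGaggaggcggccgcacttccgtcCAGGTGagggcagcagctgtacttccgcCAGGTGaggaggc

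Both Scribble module genes, which mark the basolateral side, rose, with an unadjusted p below 0.05 under the block. Llgl2, the epithelial form of lethal giant larvae, was at 2.87, 7.72, 4.87 and 1.72 in 2D and at 29.2, 37.3, 48.0 and 52.3 in 3D. Llgl2 rose by 3.11 on the log2 scale (SE 0.37, adjusted p = 4.20e-04), and mice 3 and 4 were the highest of 2D. Scrib, a scaffold expressed in many cell types, was at 14.4, 11.5, 8.93 and 12.2 in 2D and at 31.3, 23.8, 28.7 and 25.2 in 3D. Scrib rose by 1.16 on the log2 scale (SE 0.15, adjusted p = 6.83e-04), with no overlap between the groups.

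**Figure D5:**
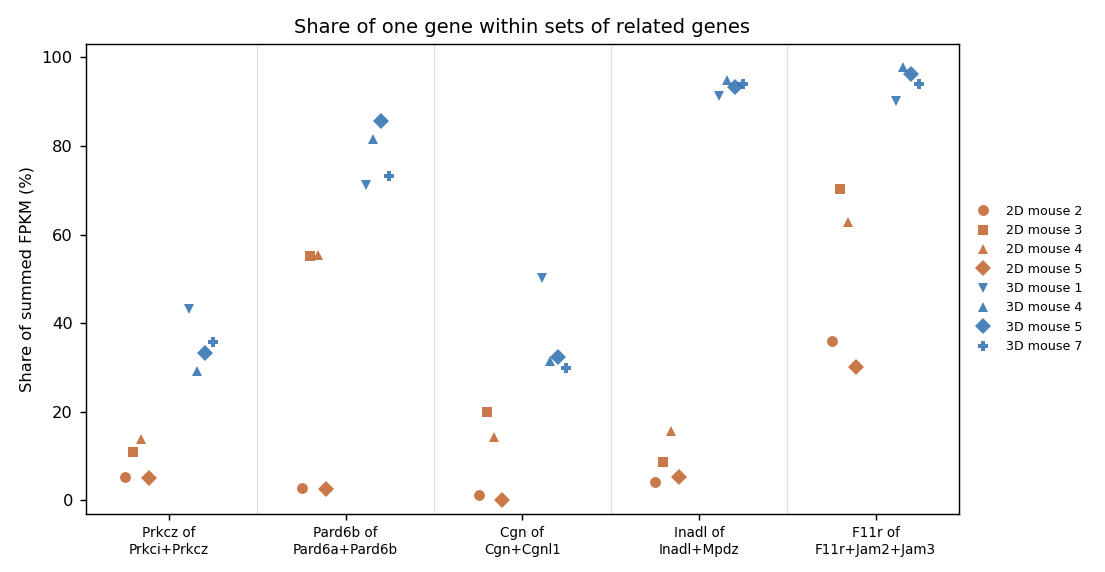
Share (%) of 1 gene in the summed normalized FPKM of its paralogs or partners in each library, each symbol being a library. All 3D points were above all 2D points for Prkcz, Pard6b, Cgn, Inadl and F11r, and for Pard6b the 2D shares were near 55% in mice 3 and 4 and near 3% in mice 2 and 5.

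Junction and polarity genes outside the 38 moved both ways. Of a list of 53, 50 were listed and 48 were tested, of which 14 rose (29.2%) and 13 fell (27.1%), beside 21.2% and 20.3% of all genes tested, with a median log2 fold change of -0.04. None passed with the replicate block, where 8 of those that rose and 8 of those that fell had an unadjusted p below 0.05, again with no share of all genes given. With mice 4 and 5 alone 2 rose and 5 fell, beside 1788 and 1432 of all 18081 genes tested. Without the 3D library of mouse 5, the number that rose was 9, beside 3468 of 18762. The number that fell was 8 without the 2D library of mouse 5 or the 3D library of mouse 4 or of mouse 5. Of all genes, 3369 of 18744, 3377 of 18729 and 3204 of 18762 fell in these refits. The largest rises were those of angulin-1 (Lsr, 5.14, SE 0.63), which recruits tricellulin to tricellular corners, of Igsf5 (4.80, SE 0.17), a junctional adhesion molecule, and of angulin-2 (Ildr1, 4.61, SE 0.17). Ildr1 was at least 355-fold higher on the deposited mean. The other angulin, Ildr2, which also recruits tricellulin, was at 0.190, 10.8, 25.4 and 1.00 in 2D, highest in mice 3 and 4, and at 0 in every 3D library, a log2 difference of -2.38 (SE 0.93) that did not pass, at an adjusted p of 0.0772. Lsr was at 8.58 in the 2D library of mouse 4 and at most 0.453 in the other three.

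The largest falls among the genes of the list that passed were those of Marveld1 (-3.67, SE 0.25), of Clmp (-3.37, SE 0.16), an adhesion molecule of the Cxadr family, and of Mpdz (-2.15, SE 0.17), the paralog of Inadl. Mpdz was at 17.8, 15.0, 13.8 and 18.5 FPKM in 2D and at 3.53, 1.93, 3.26 and 3.00 in 3D, so that it and Inadl changed in opposite directions. Inadl took 8.47 ± 5.19% of the pair in 2D and 93.4 ± 1.52% in 3D. Marveld1, unlike Ocln, Marveld2 and Marveld3, was above 23 FPKM in every 2D library and below 3 in every 3D library.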

How the data were processed

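Total RNA of 8 cultures (4 2D, 4 3D; 6 mice) was made into directional NEBNext libraries. The deposited values are FPKM per gene, which the authors made with TopHat and Cufflinks on mm10, per the labels and the study's methods; the annotation is not given in the sources used here, and gene positions come from GENCODE for GRCm38 by symbol. Counts were not used here. Depth was estimated from the steps of low FPKM values (801 genes of at least 3000 nt), of which 67.2 to 78.8% fell within 0.15 of a whole fragment, too few for a count test.

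FPKM above 0 in any library (18862 of 24346 genes) were quantile normalized, log2(FPKM + 1) transformed and tested with limma 3.58.1 (R 4.3.3, empirical Bayes with intensity trend), with Benjamini-Hochberg adjustment over all of them and a threshold of 0.05, two-sided. A fold change on this scale understates the change of low genes. "At least" folds set deposited means against 3 fragments per library and cover counting error only. In simulated data with known changes, 92 of 100 genes changed by 3 (log2) and 70 of 100 changed by 1.5 were called, with 9 false calls, and none with the block. The changed genes were drawn from those averaging 1 FPKM or more, the spread of the most variable genes was capped, and no mouse effect was simulated. These rates therefore do not cover low genes or genes with 1 library far from its group.

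All 38 genes are named. Per-library values are given for called genes without overlap and a log2 fold change of at least 1, and for means of at least 20 FPKM. Of the other junction genes, the 3 largest rises and falls are named, a further gene is not reported here, and Erbin was read under the symbol Erbb2ip. The printed promoters and the values of Ildr2 and other genes were chosen after they were seen. The genes, lists and tests were chosen with earlier results of these data known. Mouse numbers pair the libraries of mice 4 and 5, which are the same animals by the labels. Over 12583 genes, the deviations of their 2D and 3D libraries from the group means correlated at -0.053 (mouse 4) and -0.113 (mouse 5). Nothing says that libraries of a group are separate cultures beyond the mouse, so p-values measure the spread between mice in culture. Alternatives were deposited FPKM, no trend, only genes averaging 1 FPKM or more, 0.1 as the pseudocount, mouse as block or random effect, mice 4 and 5 alone, each library left out and, chosen after seeing the data, the 2D libraries of mice 3 and 4 left out. Protein sequences and 3 of 53 genes of the other junction list (Epb41l5, Epb41l4b and Cldn25) were not analysed here, nor was the mesothelium marker Muc16.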

Additional observations from a re-analysis of the deposited data

Results flagged for a closer look

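In 6 of the 47 sets of 4 libraries (a gene in one culture type, reaching 1 FPKM) 1 library stood apart from the other three by Dixon's criterion at the 95% level, where chance gives about 1 in 20. Cldn10 was at 37.9 FPKM in the 3D library of mouse 1 against 0.0885 to 0.440, and Cldn9 was at 2.33 in the same library against 0. Cldn15 was at 33.3 in the 2D library of mouse 4 against 0.990 to 1.35, and Cldn1 was at 1.27 in the 2D library of mouse 3 against 0.0628 to 0.268. The 2D libraries of mice 3 and 4 are those with mesothelium markers at 846 and 2028 FPKM in sum, and the part of such cells was not tested. Cgn was at 18.3 in the 3D library of mouse 7 against 22.1 to 22.6, and Prkcz was at 8.70 in the 3D library of mouse 4 against 12.5 to 12.9.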

How the results depend on the processing

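The number of the 38 genes that rose was 20 on deposited FPKM, without the intensity trend, over the genes averaging 1 FPKM or more, with a pseudocount of 0.1 and with mouse as a random effect. It was 17 with mice 4 and 5 alone and 18 to 21 with each library left out, and the number that fell was 2 to 3 in all these settings. Of all genes, 1788 of 18081 rose and 1432 fell with mice 4 and 5 alone. With each library left out, 3393 to 4051 rose and 3204 to 3835 fell, of 18632 to 18762 tested. Over genes averaging 1 FPKM or more, 3537 of 12583 rose and 3484 fell. In the rest of these settings 3948 to 4279 rose and 3779 to 4069 fell, of 18862. With the mouse as replicate block, for the pairing of mice 4 and 5, 0 rose and 0 fell, and in the list of other junction genes 0 and 0. There, mice 4 and 5 alone gave 2 higher and 5 lower, and leaving out each library gave 9 to 13 higher and 8 to 12 lower. None of the 22 genes that rose or fell changed direction in these settings, while the small differences of Cldn9, Cldn11, Cldn12, Mpp5, Pard6a and Prkci, which did not pass, changed sign in some. The share of Cldn12 in the 2D claudin sum ran from 71.9 to 91.9% and that of Cldn4 in 3D from 28.8 to 36.7% with each library left out. The block, with 1 residual degree of freedom, called none of the 18862 genes tested, so its count of 0 cannot decide whether a result is stable. It called no gene in simulated data either, but those held fewer changed genes than were called here and no mouse effect. Genes under 3 fragments, such as Cldn5, Cldn18 and Cldn19, could not be compared at this depth.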
